A study of Mus musculus with 16 samples.

Results

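Plasmacytoid dendritic cells (pDC) were selected among the immune cells of subcutaneous B16 mouse melanomas on the raw transcript counts of single cells. A barcode (1 droplet, in most cases 1 cell) was chosen by having at least 200 detected genes, at most 10% mitochondrial transcripts, at least 2 Siglech molecules, at least 1 molecule of Ccr9, Cox6a2 or Klk1, no Cd3d or Cd3e, and at most 5 molecules of C1qa, C1qb and C1qc together. Of 116552 deposited barcodes, 99357 passed the quality limits and 778 of these (0.783%) were pDC. The levels of the genes in this rule are therefore a description of the choice, and no test was made on them.

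C57BL/6J mice had received 1000000 B16 cells of the Bro4.1 line, either B2m-null or control, and 100 ug of an anti-CD40 antibody or of a rat IgG2a isotype control on days 6, 9 and 12. Tumours were taken on day 14, and cells positive for CD45, the pan-leukocyte surface protein, were enriched on magnetic columns. Each mouse's cells were marked with a hashtag antibody, mice of 1 group were pooled, and each pool was loaded on a 10x Chromium lane for 3' v3 sequencing of unique molecular identifiers (UMIs, 1 per captured transcript). In the series text B2m is missing from the injected melanoma line, whereas the sample labels list it under the genotype of the sample; the hosts' own cells are read here as C57BL/6J in every group. There were 4 groups of 2 lanes each: control tumours with isotype (139 and 120 pDC), control tumours with anti-CD40 (4 and 5), B2m-null tumours with isotype (214 and 261) and B2m-null tumours with anti-CD40 (19 and 16). The labels call the control anti-CD40 lanes technical replicates, so they were summed. The mouse's age and sex, and whether the tumour line is a single clone, were not given in the sources used here.

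pDC are a rare, round, plasma-cell-shaped lineage of dendritic cells that detect viral and self nucleic acids with endosomal Toll-like receptors and can secrete large amounts of type I interferon. Their identity rests on the transcription factor E2-2, encoded by Tcf4, which acts with partners such as Spib, Runx2, Bcl11a and Zeb2 and opposes the conventional dendritic cell programme held by Id2. In tumours they are often described as poorly activated cells with low interferon output. CD40 is a receptor of the tumour necrosis factor family on dendritic cells, macrophages and B cells, and agonist antibodies to it drive dendritic cell maturation.

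The lanes held 10656 to 15652 filtered barcodes and 4.36e+07 to 9.19e+07 UMIs. The labels list 3 hashtags for every pool, while the files of 6 of 8 lanes hold 2, so mice were counted from the hashtags present in the files, which gave 16. Over all lanes 16.5% of barcodes could not be assigned to a mouse, and in lane 1 of the B2m-null isotype group it was 63.8%, with 69.6% of that lane's pDC. In lane 1 of the B2m-null anti-CD40 group it was 35.8%, with 57.9% of the pDC (11 of 19). The pDC of lane 1 of the B2m-null isotype group were also the shallowest of the isotype lanes, with a median of 1118 UMIs, against 3313 in lane 2 of the group and 2265 and 2602 in the control isotype lanes. Any pair of lanes shared 29 to 73 barcode sequences, and no pDC barcode was shared. In barcodes with melanoma transcripts and no Ptprc (CD45), B2m made up 948 to 2012 CPM (UMIs scaled to a total of 1000000) in the control lanes and 166 to 423 CPM in the B2m-null lanes, so the lanes matched their labels. pDC held a higher mitochondrial share than other barcodes (median 6.67% against 4.58% over all), and 83.3% of pDC lay above 5%, against 41.4% of all barcodes.

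Among the 778 pDC, Siglech, a sialic-acid-binding lectin of mouse pDC, had 2 to 35 UMIs with a median of 6. Ccr9, a gut-homing chemokine receptor, was present in 692 (88.9%), Cox6a2, a cytochrome oxidase subunit, in 553 (71.1%) and Klk1, a kallikrein protease, in 418 (53.7%). All 3 were seen in 280 pDC, and 173 carried only 1 of them. At the edge of the rule, the 98 members with exactly 2 Siglech UMIs held Tcf4 in 96.9%, and the 71 barcodes that met every other condition with 1 Siglech UMI held it in 91.5%. A further 49 barcodes failed only for lack of Ccr9, Cox6a2 and Klk1, and 98.0% of them held Tcf4. C1q transcripts, which macrophages make, were present at 1 to 5 UMIs in 183 pDC (23.5%). Among the 37086 barcodes with more than 5 C1q UMIs, 0.820% held a Siglech UMI and 44.8% a Tcf4 UMI, at a median of 6194 UMIs per barcode, so a Tcf4 UMI alone does not mark a pDC.

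The promoters of genes that set these cells apart are shown because Tcf4, the defining factor, is known to bind E-box letters. Windows of 250 bases before to 50 after the gene start came from RefSeq on GRCm38.p6, with 1 chromosome left out. Of the 29 rule and identity genes, 23 had a window in this set, and Tcf4 itself was not among them. The motif searched was CACCTG, which reads as CAGGTG on the opposite strand; both strands were searched, and the pair is 1 motif, so no site was counted more than once. The motif stood in 8 of the 23 windows (34.8%) and in 5413 of 27025 promoters of the annotation (20.03%). The 8 included Siglech, Ccr9 and Klk1, which are genes of the selection rule. The difference between these shares was not tested and is not a result about the identity genes. Of these 8, 5 follow, read 5′ to 3′ in the direction of the gene, with the matched letters in capitals. They are Siglech (chr7:55767934-55768233, plus strand), Ccr9 (chr9:123766961-123767260, plus strand), Mctp2 (chr7:72306546-72306845, minus strand), Fcrla (chr1:170927534-170927833, minus strand) and Cd300c (chr11:114960458-114960757, minus strand).
Siglech: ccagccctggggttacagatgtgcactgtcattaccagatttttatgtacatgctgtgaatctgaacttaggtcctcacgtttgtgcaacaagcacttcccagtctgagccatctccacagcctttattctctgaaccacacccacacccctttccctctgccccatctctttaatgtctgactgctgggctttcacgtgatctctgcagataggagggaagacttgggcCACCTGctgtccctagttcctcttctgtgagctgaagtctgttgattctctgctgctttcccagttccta
Ccr9: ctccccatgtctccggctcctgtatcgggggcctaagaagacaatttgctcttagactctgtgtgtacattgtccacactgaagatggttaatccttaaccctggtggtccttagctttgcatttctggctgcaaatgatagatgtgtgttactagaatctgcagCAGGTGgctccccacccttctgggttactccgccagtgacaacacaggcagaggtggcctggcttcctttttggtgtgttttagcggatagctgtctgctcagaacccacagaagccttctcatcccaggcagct
Mctp2: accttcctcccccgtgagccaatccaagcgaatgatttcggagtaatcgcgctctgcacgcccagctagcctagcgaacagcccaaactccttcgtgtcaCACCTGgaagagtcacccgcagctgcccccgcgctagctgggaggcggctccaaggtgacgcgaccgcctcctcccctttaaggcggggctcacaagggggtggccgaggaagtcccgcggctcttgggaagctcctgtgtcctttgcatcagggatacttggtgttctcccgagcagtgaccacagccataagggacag
Fcrla: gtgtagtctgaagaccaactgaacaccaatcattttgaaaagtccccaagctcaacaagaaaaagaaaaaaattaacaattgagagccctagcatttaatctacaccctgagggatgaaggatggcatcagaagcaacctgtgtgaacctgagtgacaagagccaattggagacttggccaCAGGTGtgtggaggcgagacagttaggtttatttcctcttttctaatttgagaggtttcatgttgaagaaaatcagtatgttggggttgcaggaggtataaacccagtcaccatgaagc
Cd300c: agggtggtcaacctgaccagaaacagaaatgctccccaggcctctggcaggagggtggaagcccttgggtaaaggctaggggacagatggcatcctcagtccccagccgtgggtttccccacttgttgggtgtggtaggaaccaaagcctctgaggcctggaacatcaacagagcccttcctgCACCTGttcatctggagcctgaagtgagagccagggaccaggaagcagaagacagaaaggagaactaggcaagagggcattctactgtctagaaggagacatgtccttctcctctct
The match begins 20 bases before the start in Siglech, 85 in Ccr9, 150 in Mctp2, 69 in Fcrla and 67 in Cd300c. Siglech and Ccr9 belong to the selection rule, while Mctp2, Fcrla and Cd300c were not used in it. A match is a string of letters and not a measured binding site, and a window without it says nothing about Tcf4 binding elsewhere.

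The label was checked on 25 identity genes outside the rule, with every cell thinned at random to 1000 UMIs so that depth was equal. After hashtag doublets were removed, 646 of 730 pDC reached that depth. A pDC held a median of 11 of the 25 genes (5th to 95th percentile 5 to 14), whereas type 1 conventional dendritic cells (cDC1), type 2 conventional dendritic cells (cDC2) and mature dendritic cells held medians of 2, 2 and 1. At least 5 of the genes were seen in 97.7% of pDC, 3.08% of cDC1, 7.01% of cDC2 and 0.993% of mature dendritic cells. The 3 reference sets were chosen on their own markers and all required no Siglech: Xcr1 and Clec9a for cDC1, at least 2 Cd209a UMIs for cDC2, and Ccr7 with Fscn1 for mature dendritic cells. By lane the median per pDC ran from 10 to 12, also in the 4 and 4 cells that remained from the control anti-CD40 lanes. Nearly all of the 646 members checked thus carried several genes of the named cell type that the rule did not use, and 15 (2.32%) held fewer than 5 of them. The 84 members under that depth and the 48 hashtag doublets were not checked. In lane 1 of the B2m-null isotype group 134 of 210 were checked.

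**Figure D1:**
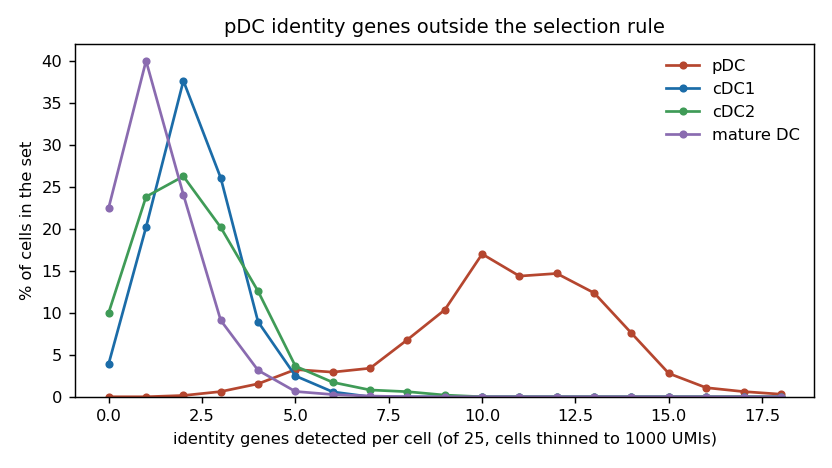
Number of pDC identity genes detected per cell (x axis, of 25 genes outside the selection rule, cells thinned to 1000 UMIs) against the percentage of cells of each set (y axis); each line is 1 set of cells. The pDC line peaks at 10 genes (17.0% of cells), and the 3 other dendritic cell lines peak at 1 or 2 genes.

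Single markers were not uniform among pDC. Tcf4 was detected in 98.4% of pDC and in 89.6% after thinning, against 18.8% of thinned cDC2 and 4.25% of thinned cDC1. Ly6d, a small membrane-anchored protein of lymphoid progenitors, was in 73.6% and, thinned, 59.3%, against at most 0.812% of thinned cells in the other 3 sets. Dntt, the terminal transferase of developing lymphocytes, was in 33.6% and, thinned, 15.8% of pDC, and it was in 0 of the thinned cDC1 and cDC2. Its thinned share ran from 4% to 40% over 8 isotype mice, with a mean of 16.1% ± 11.4 (SD, n = 8), while that of Ly6d ran from 52.4% to 68.8%. Iglc3, an immunoglobulin lambda constant segment, was in 55.8% and, thinned, 35.8% of pDC, and in at most 0.542% of the other thinned sets. Mki67, a marker of dividing cells, was in 2.19% and, thinned, 0.774% of pDC. Thinned, it was in 12.9% of cDC1, 2.94% of cDC2 and 1.90% of mature dendritic cells. At least 2 of the listed cell cycle genes were seen in 16.1% of thinned pDC, 48.8% of cDC1, 23.35% of cDC2 and 26.4% of mature dendritic cells.

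pDC were scarce after anti-CD40 in both kinds of tumour and more frequent in B2m-null than in control tumours under isotype. As a percentage of a mouse's filtered barcodes, pDC made up 0.489, 1.38, 0.617, 0.856 and 1.58% in the 5 control isotype mice and 0.0471 and 0.0340% in the 2 control anti-CD40 mice. In B2m-null tumours they made up 1.85, 1.19, 1.93, 2.02 and 2.64% in the 5 isotype mice and 0.114, 0.0751, 0.0906 and 0.280% in the 4 anti-CD40 mice. Every anti-CD40 mouse lay below every isotype mouse, while the genotypes overlapped under isotype, since 2 control mice exceeded the lowest B2m-null mouse. Group means were 0.984% ± 0.476 (SD, n = 5), 0.0405% ± 0.00924 (SD, n = 2), 1.93% ± 0.515 (SD, n = 5) and 0.140% ± 0.0947 (SD, n = 4) in the same order. A share counts cells against all other CD45-enriched barcodes, so fewer pDC and more of other cells cannot be told apart.

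**Figure D2:**
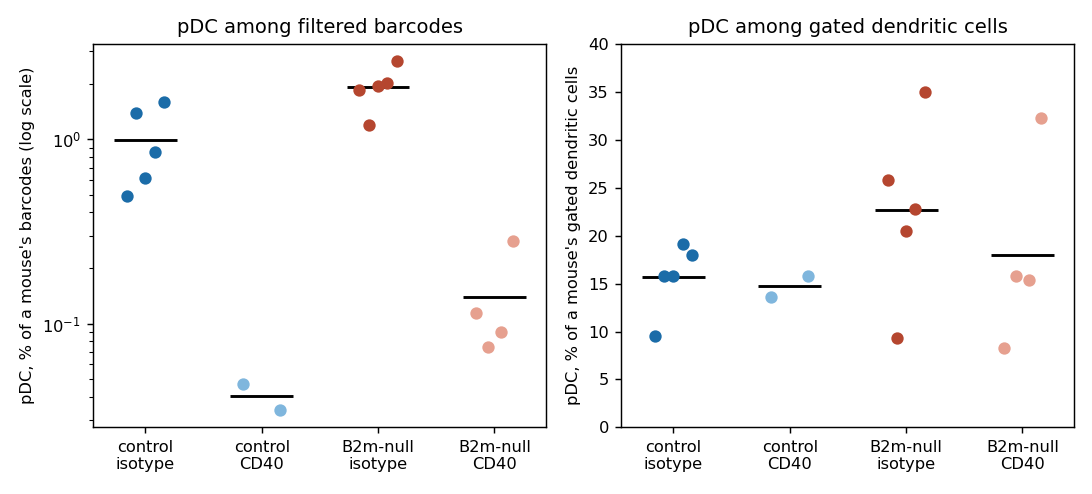
pDC as a percentage of each mouse's filtered barcodes (left, log scale) and of its gated dendritic cells (right, linear scale) in the 4 groups; each point is 1 mouse and each bar a group mean. On the left every anti-CD40 mouse lies below every isotype mouse, and on the right all groups overlap.

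In B2m-null tumours the mean share differed by -1.79 percentage points with anti-CD40, a 13.8-fold lower value (two-sided exact permutation test, p = 0.00794, adjusted over 4 contrasts p = 0.0317). In control tumours the difference was -0.943 points, 24.3-fold (exact permutation test, p = 0.0952, adjusted p = 0.127), where 2 treated mice allow no p below 0.0476. Under isotype the share was 0.941 points higher in B2m-null than in control tumours (exact permutation test, p = 0.0238, adjusted p = 0.0476), and under anti-CD40 it was 0.0995 points higher (exact permutation test, p = 0.267, adjusted p = 0.267). Whether the drop with anti-CD40 differed between the tumour types depended on the scale: in points it was larger in B2m-null tumours (difference -0.842, permutation p = 0.0511), and on the log2 scale the sign turned (+0.51, permutation p = 0.652). Neither call held in every alternative. With barcodes thinned to 1500 UMIs before selection and shallower ones left out, which kept 10924 of 13075 barcodes in the B2m-null isotype, 14220 of 16817 in the B2m-null anti-CD40 and 16538 of 21136 in the control isotype mice, the anti-CD40 difference in B2m-null tumours was -1.03 points (exact permutation test, adjusted p = 0.178), and the genotype difference under isotype was 0.246 points (adjusted p = 0.627). In the mice of lane 1 of the B2m-null isotype group thinned pDC numbered 12, 2 and 1, against 42, 10 and 9 unthinned. In lane 2 they numbered 88 and 91, against 113 and 103. Thinned shares were at most 0.224% in B2m-null anti-CD40 mice and at least 0.321% in B2m-null isotype mice. At a limit of 5% mitochondrial UMIs, which removes most pDC, the anti-CD40 and genotype differences were -0.353 points (exact permutation test, adjusted p = 0.0952) and 0.0219 points (adjusted p = 0.865). Leaving out 1 mouse or lane at a time, the anti-CD40 difference passed in 4 of 13 cases and the genotype difference in 1 of 14, with fewer samples to permute, and both kept their sign.

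Mean shares of the other dendritic cells were also lower with anti-CD40; these were not tested. In B2m-null tumours mean cDC1 shares were 1.28% with isotype and 0.124% with anti-CD40, cDC2 shares 2.90% and 0.158%, and mature dendritic cell shares 3.04% and 0.404%. Of the gated dendritic cells, pDC made up 15.6% ± 3.69 (SD, n = 5) in control isotype, 14.7% ± 1.52 (SD, n = 2) in control anti-CD40, 22.7% ± 9.29 (SD, n = 5) in B2m-null isotype and 17.9% ± 10.1 (SD, n = 4) in B2m-null anti-CD40 mice. The single mice ranged from 8.33 to 35.0%, the groups overlapped, and no contrast passed the exact permutation test (adjusted p = 0.635 for genotype under isotype and 0.800 for the other 3 contrasts). The genotype difference under isotype was 7.03 points, and without the mouse with hashtag 2 in lane 1 of the B2m-null isotype group it was 10.4 points and passed (exact permutation test, adjusted p = 0.0317); without other single mice or lanes it ran from 2.88 to 13.3 points and did not pass. With so few mice these tests do not show that the pDC fraction of dendritic cells was the same.

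Within isotype mice, pDC differed from each other set of dendritic cells in many of the tested genes. UMIs were summed per mouse and set and compared with the mouse as a block, in the 9 mice with at least 10 cells of each kind. Against cDC1, 2022 of 3700 genes passed an adjusted p of 0.05 in edgeR's quasi-likelihood test (54.6%), 1016 higher in pDC (27.5%) and 1006 lower (27.2%). Against cDC2 it was 1582 of 2941 (53.8%), 786 higher (26.7%) and 796 lower (27.1%), and against mature dendritic cells 2011 of 3251 (61.9%), 976 higher (30%) and 1035 lower (31.8%). The counts of each gene list below are to be read against these shares over all tested genes, and a list's share near them is not a result about the list. A low gene that entered a test only through the set where it is high had to differ in that direction, so the list counts and medians are descriptions of the genes tested and not of all members. Genes of either selection rule were left out of these tests. The sets were chosen on transcripts of the same cells, so genes that travel with the chosen markers differ in part by construction. Without lane 2 of the B2m-null isotype group, which held the most pDC, the counts were 1286 of 2592, 1002 of 2312 and 1518 of 2844 tested genes.

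Most identity genes were higher in pDC than in each other set. Of the 25, 22 of 23 tested were higher and 1 lower in pDC than in cDC1 (median log2 difference 4.49, against 0.0097 over all tested genes), 20 of 21 higher than in cDC2 (median 4.21 against -0.0087) and 21 of 21 higher than in mature dendritic cells (median 4.22 against -0.0060). These genes were chosen as known pDC markers with earlier results of these data at hand.

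**Figure D3:**
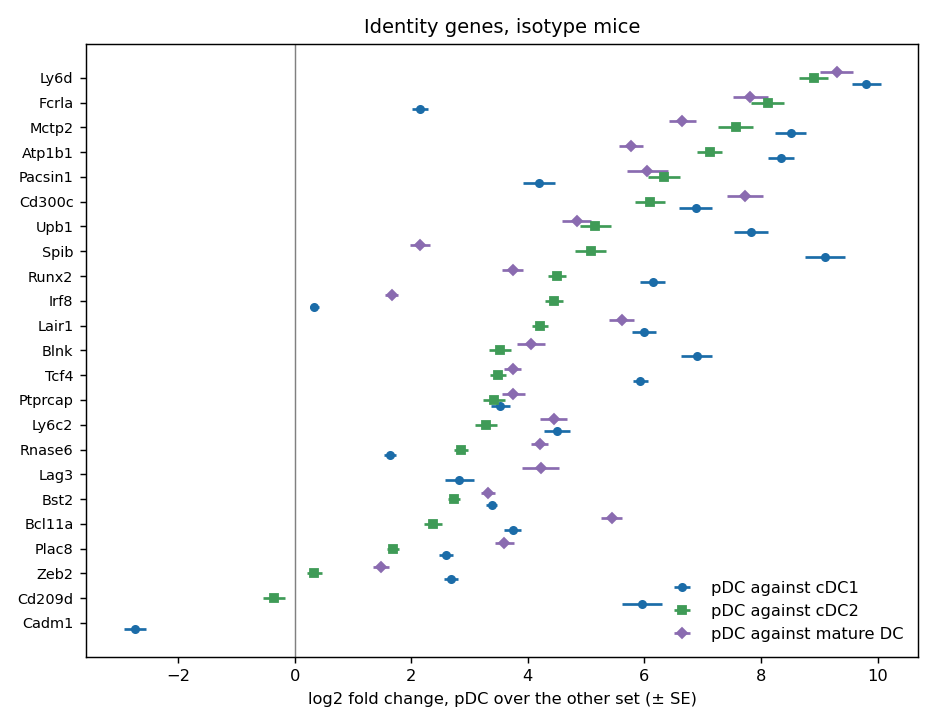
log2 fold change of pDC identity genes in isotype mice (x axis, pDC over the other set, mouse as a block, bars are standard errors from edgeR) for each gene (y axis), in 3 comparisons. Nearly all points lie right of 0; Cadm1 lies left of it against cDC1 and Cd209d against cDC2.

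Tcf4, the defining factor, was counted at 1762, 2524 and 3539 CPM (lowest, median and highest of 9 isotype mice) in pDC and at 128, 204 and 472 CPM in cDC2. No mouse's pDC came near the range of another set, and the log2 difference was 5.93 ± 0.13 (SE) against cDC1, 3.49 ± 0.13 against cDC2 and 3.74 ± 0.14 against mature dendritic cells (edgeR adjusted p = 1.1e-20, 1.5e-15 and 1.0e-15). Bst2, the interferon-inducible tetherin that pDC antibodies recognise, lay at 2169, 2633 and 3746 CPM in pDC and at 162, 249 and 338 CPM in cDC1, again without overlap (log2 difference 3.38 ± 0.09, edgeR adjusted p = 3.7e-19). Ly6d lay at 468, 1310 and 1704 CPM in pDC, and 4, 7 and 5 UMIs of it were counted in all cDC1, cDC2 and mature dendritic cells of these mice. Spib, an Ets factor that restrains the conventional programme, lay at 156, 227 and 332 CPM in pDC with 0 UMIs in cDC1, which makes it at least 297-fold higher over the summed mice (floor of 3 counts over the group), while in mature dendritic cells it lay at 22.8, 44.5 and 69.9 CPM (log2 difference 2.15 ± 0.17, edgeR adjusted p = 2.6e-10).

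Irf8, a factor that pDC share with cDC1, set these sets apart less evenly. It lay at 1717, 2804 and 3341 CPM in pDC, 1516, 1994 and 2346 CPM in cDC1 and 49.98, 117 and 208 CPM in cDC2, so pDC overlapped cDC1 and not cDC2. The log2 difference was 0.34 ± 0.08 against cDC1 (edgeR adjusted p = 5.5e-04, higher in 8 of 9 mice) and 4.45 ± 0.16 against cDC2 (edgeR adjusted p = 9.9e-16). Fcrla, an Fc-receptor-like protein kept inside the cell, lay at a mean of 363 CPM in pDC, 76.7 in cDC1, 0.536 in cDC2 and 1.46 in mature dendritic cells. Cadm1, an adhesion molecule that marks cDC1, was the list's exception, with a log2 difference of -2.74 ± 0.19 against cDC1 (edgeR adjusted p = 6.8e-12), and Cd209d, a C-type lectin, lay at 158 CPM in pDC and 189 CPM in cDC2 (log2 difference -0.36 ± 0.18, edgeR adjusted p = 0.10).

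The leading rises came from inside and outside the identity list and included genes known from lymphocytes. Dntt lay at 55.0, 193 and 468 CPM in pDC with 0 UMIs in cDC1 and in mature dendritic cells, at least 197-fold and at least 175-fold higher (floor of 3 counts over the group). Iglc3 lay at 234, 449 and 642 CPM, with 2, 3 and 3 UMIs in the 3 other sets; near-identical lambda segments share reads, so its count is uncertain. Cd4, a T cell co-receptor that mouse pDC also carry, lay at 66.5, 111 and 390 CPM, with 4, 5 and 2 UMIs in the other sets. Atp1b1, an identity gene that encodes a sodium pump subunit, lay at a mean of 826 CPM ± 238 (SD, n = 9) in pDC and 1.61, 4.96 and 12.5 CPM in cDC1, cDC2 and mature dendritic cells. Other leading rises were Mctp2, Smim5, Upb1, Slco4a1 and Klra17 against cDC1, Pacsin1, Paqr5, Eldr, Cd300c and Slpi against cDC2, and Lefty1, Cdh5, Cacna1e and Paqr5 against mature dendritic cells. Mctp2, Upb1, Pacsin1 and Cd300c are also identity genes, and Cdh5 is one of the endothelial markers. Their pDC means ran from 99.5 CPM (Cacna1e) to 342 CPM (Slpi, a secreted protease inhibitor).

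The largest falls marked the other sets. Against cDC1 they were Itgae, the CD103 integrin chain, at 5.34 CPM in pDC and 321 in cDC1 (log2 difference -6.04 ± 0.33, edgeR adjusted p = 1.0e-13), Plet1, Tlr3, Sept3, Gcsam, and the division genes Spc24, Mki67, Cdca3, Pclaf and Rrm2. Against cDC2 they included Mgl2, a lectin of that lineage, at 23.4 and 631 CPM (log2 difference -4.52 ± 0.23, edgeR adjusted p = 3.4e-13), then Olfm1, Ifitm1, Tnip3, Clec4b1, Klrb1b, H2-DMb2, S100a4 and Ccl17. Against mature dendritic cells they were Strip2, Adgrg6, Adcy6, Tbc1d4, Ramp3, Cacnb3, Fnbp1l, Slco5a1, Mmp25 and Ccl22, the last a chemokine for regulatory T cells at 70.6 CPM in pDC and 1838 CPM in mature dendritic cells. Each of these lay lower in pDC in all 9 mice, except Ccl17, which was lower in 7 of 9.

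Several genes for sensing nucleic acids, Tlr7 among them, were higher in pDC. Of those tested, 8 of 14 were higher and 3 lower than in cDC1 (median log2 difference 0.52), 6 of 12 higher and 2 lower than in cDC2 (0.28), and 6 of 14 higher and 4 lower than in mature dendritic cells (0.36), where the lower calls were near the 31.8% over all genes. Tlr7, the endosomal receptor for single-stranded RNA, lay at 121, 193 and 420 CPM in pDC and reached at most 6.73, 24.5 and 12.8 CPM in the other sets' mice (log2 difference 5.44 ± 0.28, 4.05 ± 0.28 and 4.98 ± 0.30, edgeR adjusted p = 2.9e-14, 4.8e-11 and 2.0e-12). Tlr9, the receptor for CpG DNA, was at 0 CPM in the median isotype mouse's pDC, was seen in 1.51% of pDC, and was too low to be tested. Unc93b1, which carries these receptors to endosomes, and Pld4, an endosomal nuclease, were higher in pDC in all 9 mice in all 3 comparisons, with log2 differences of 0.89 to 2.67 and 1.5 to 3.40. Irf7, the factor that switches on interferon genes, was higher than in cDC1 by 0.78 ± 0.18, cDC2 by 0.46 ± 0.19 and mature dendritic cells by 1.15 ± 0.19 on the log2 scale (edgeR adjusted p = 5.8e-04, 0.044 and 2.0e-05). Irf5 was lower in all 9 mice in all 3 comparisons, and Tlr3, which senses double-stranded RNA in cDC1, was at 2.54 CPM in pDC and 201 CPM in cDC1.

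Interferon transcripts themselves were nearly absent. Of the 15 Ifna, Ifnab and Ifnb1 genes in the files, Ifnb1 alone had UMIs in pDC, 14 in 10 of 778 cells (1.29%), while in other barcodes it was found in 1.57%. Of the 14 UMIs, 10 came from lane 1 of the control isotype group. The level was 5.64 CPM in pDC (exact 95% Poisson interval 3.08 to 9.46, counting error only) and 6.31 CPM in all other barcodes, and in that lane it was 22.04 CPM in pDC and 11.8 CPM in the others. Of the remaining type I genes listed, Ifnz had 1 UMI in pDC, and Ifne and Ifnk had 0. No Ifna gene, Ifnab included, and none of the 2 type III genes had a UMI in pDC, which (3 counts of the total) allows up to 1.21 CPM and up to 0.386% of cells with a UMI. The interferon receptor chains Ifnar1 and Ifnar2 were higher in pDC than in each other set, by 1.34 to 1.55 and by 1.43 to 1.89 on the log2 scale. Of the type I interferon-stimulated genes, 4 of 13 were higher and 3 lower than in cDC1, near the 27.5% and 27.2% over all genes, 3 of 14 higher and 9 lower than in cDC2, and 4 of 15 higher and 6 lower than in mature dendritic cells.

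The secretory machinery set pDC apart from mature dendritic cells most clearly, with 17 of 19 tested genes higher and 1 lower (median log2 difference 1.08). Against cDC1 it was 12 of 21 higher and 3 lower (0.41), and against cDC2 10 of 20 higher and 4 lower (0.28). Xbp1, the factor that expands the endoplasmic reticulum in secretory cells, lay at 228, 312 and 632 CPM in pDC and at 42.4, 72.6 and 168 CPM in mature dendritic cells, with no overlap (log2 difference 2.11 ± 0.17, edgeR adjusted p = 2.8e-10). It was also higher than in cDC1 (1.23 ± 0.13) and cDC2 (0.82 ± 0.15). Sec11c, a signal peptidase subunit, was higher in pDC in all 9 mice in all 3 comparisons, whereas Sdf2l1, an endoplasmic reticulum co-chaperone, was lower than in cDC1 (-1.40 ± 0.17) and cDC2 (-0.93 ± 0.17) and higher than in mature dendritic cells (0.68 ± 0.20).

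Most of the tested MHC class II genes, which serve antigen presentation to helper T cells, were lower in pDC than in each other set. Of these genes, 10 of 12 tested were lower and 1 higher than in cDC1 (median log2 difference -2.08), 11 of 12 lower than in cDC2 (-1.94), and 7 of 11 lower and 3 higher than in mature dendritic cells (-0.91). H2-Aa, the class II alpha chain, lay at 947, 1444 and 1806 CPM in pDC and at 4615, 6208 and 6943 CPM in cDC1, with no overlap (log2 difference -2.23 ± 0.07, edgeR adjusted p = 2.1e-18). Cd74, the invariant chain, lay at 2127, 3200 and 3764 CPM in pDC and 8584, 11725 and 12619 CPM in cDC1. Ciita, the class II transactivator, had log2 differences of -2.49 ± 0.16, -2.58 ± 0.16 and -0.77 ± 0.19 in the 3 comparisons (edgeR adjusted p = 3.9e-12, 4.7e-12 and 0.0016). Cd86, a costimulatory ligand of T cells, was likewise lower in all 9 mice in each, with log2 differences of -1.97, -1.58 and -2.87. Costimulation and tolerance genes counted 3 of 8 higher and 2 lower against cDC1 and 1 of 6 and 1 against cDC2, which was not far above the shares over all genes in any direction, and 3 of 9 and 6 against mature dendritic cells. Among class I genes, 8 of 17 were higher and 6 lower than in cDC1, and 9 of 17 higher and 1 lower than in cDC2; H2-K1, H2-Q7 and B2m were higher in pDC than in cDC1 and cDC2 in all 9 mice, and 13 of 17 class I genes were lower than in mature dendritic cells; the H2 genes are close copies and reads can be split between them.

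Lists of activation, division and survival genes were tested in part only through the sets where these genes are high: when pDC of the 2 genotypes were compared without other sets, 9 of 21 CD40 and NF-kB genes, 3 of 20 cell cycle genes and 5 of 19 survival genes passed the low-count filter. Their counts therefore do not support a lower level of each list in pDC. Of the CD40 and NF-kB genes, 6 of 11 were higher and 2 lower than in cDC1, and 7 of 11 were lower and 1 higher than in cDC2. In the same list 17 of 18 tested genes were lower in pDC than in mature dendritic cells and 1 higher (median log2 difference -1.55). Cd40 itself lay at 7.57, 16.6 and 88.5 CPM in pDC and at 168, 237 and 371 CPM in mature dendritic cells (log2 difference -3.60 ± 0.24, edgeR adjusted p = 8.6e-12), and Relb and Traf1 were lower, at -3.65 and -3.48. All 17 tested cell cycle genes were lower than in cDC1 (median -4.37), as were 4 of 5 against cDC2, while against mature dendritic cells 1 of 4 was lower and 1 higher. Survival and apoptosis genes counted 8 of 11 lower and 1 higher than in cDC1, 8 of 9 lower than in cDC2 and 11 of 12 lower than in mature dendritic cells, where Bcl2a1b and Bcl2a1d, near-identical copies of an anti-apoptotic gene, had log2 differences of -3.66 and -3.68. Id2, the factor that Tcf4 opposes, was lower in all 9 mice in all 3 comparisons (log2 differences -3.12, -1.03 and -3.22). Its list of conventional and transitional dendritic cell genes was mixed. In that list 4 of 7 tested genes were lower and 1 higher than in cDC1, and 5 of 7 lower and 1 higher than in cDC2. Against mature dendritic cells 4 of 8 were lower and 4 higher (median log2 difference -0.079).

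Several chemokine receptor and adhesion genes and some cytokine genes were higher in pDC, and others were lower. Of the chemokine receptor and adhesion genes, 8 of 12 were higher and 2 lower than in cDC1, 6 of 11 higher and 3 lower than in cDC2, and 7 of 10 higher and 1 lower than in mature dendritic cells. Ccr2, a receptor for monocyte-attracting chemokines, was lower than in cDC1 and cDC2 (-0.56 and -1.45) and higher than in mature dendritic cells (1.34). Il7r, the interleukin-7 receptor chain, was higher than in cDC1 (4.31 ± 0.24) and cDC2 (2.28 ± 0.16). Ccl4, an inflammatory chemokine, lay at 1015, 1745 and 3253 CPM in pDC and was higher than in each other set in all 9 mice (log2 difference 2.16, 1.97 and 2.92), and it was found in 64.0% of pDC and 50% after thinning, against 7.94% to 23.1% of the other thinned sets. Ccl5 was lower than in mature dendritic cells in all 9 mice (-4.12 ± 0.36). Over the cytokine list, 4 of 8 genes were higher and 3 lower than in cDC1, 2 of 8 and 3 than in cDC2, and 3 of 11 and 7 than in mature dendritic cells; the higher calls against cDC2 and against mature dendritic cells were near or below the 26.7% and 30% over all genes.

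Markers of other cells and of tissue handling also differed between the sets. Macrophage markers counted 4 of 4 higher than in cDC1, 1 of 6 higher and 3 lower than in cDC2, and 2 of 4 higher than in mature dendritic cells. Both tested endothelial markers were higher in pDC in all 3 comparisons (median log2 difference 5.24, 3.40 and 5.52), and so were the tested plasma cell markers, 2 of 2, 1 of 1 and 2 of 2 (2.501, 3.44 and 4.30). Of the monocyte markers, which share Ly6c2 and Plac8 with the identity list, 3 of 4 were higher and 1 lower than in cDC1, 2 of 5 higher and 1 lower than in cDC2, and 4 of 4 higher than in mature dendritic cells. Tested cDC2 markers counted 2 of 3 higher than in cDC1 (median 2.76), 3 of 4 lower than in cDC2 (-1.40) and 3 of 4 higher than in mature dendritic cells (1.40). T cell, NK cell, neutrophil, B cell and melanoma markers were all too low to be tested. Of the dissociation and heat-shock genes, 9 of 17 were lower and 2 higher than in cDC1, and 14 of 17 lower and 0 higher than in cDC2. Against mature dendritic cells 5 of 15 were lower and 4 higher, near the shares over all tested genes. Their part in the differences above was not tested.

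Between B2m-null and control tumours under isotype, the MHC class I genes lay lower in pDC of B2m-null tumours, but no gene passed the test across all genes. The comparison used mice with at least 10 pDC, 4 with B2m-null tumours (10 to 113 cells; the fifth, with 9, was left out) and 5 with control tumours (17 to 66 cells). In edgeR's quasi-likelihood test 0 of 2540 genes were called (0%), while 156 had an unadjusted p under 0.05, and DESeq2 called 6. All 16 class I genes tested had a negative log2 difference, 10 with an unadjusted p under 0.05, with a median of -0.46 against -0.017 over all tested genes; without lane 2 of the B2m-null isotype group that median was -0.83 and edgeR called 8 genes, none of them in this list. Several of these genes are near-identical copies and are not independent.

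H2-Q7, a class I gene of the Qa-2 region, was at 1195, 743, 661, 908 and 1041 CPM in the pDC of control tumours and at 449, 390, 583 and 454 CPM in those of B2m-null tumours. Every control mouse lay above every B2m-null mouse (log2 difference -0.88 ± 0.20 (SE), edgeR adjusted p = 0.216). H2-D1, a classical class I heavy chain, was at 2877, 2142, 1816, 2595 and 2530 CPM in control and at 1263, 780, 1781 and 1483 CPM in B2m-null tumours, again without overlap (log2 difference -0.76 ± 0.19, edgeR adjusted p = 0.248). The nearest H2-D1 values, 1781 and 1816 CPM, were close. The B2m-null mouse at 390 CPM H2-Q7 and 780 CPM H2-D1 had 10 pDC with 12813 UMIs in all. How many of all tested genes separated the groups without overlap was not counted. H2-K1, the other classical heavy chain, was at 4558, 3711, 2928, 3775 and 3932 CPM and at 3024, 3356, 2726 and 2158 CPM; here the groups overlapped (-0.51 ± 0.14, edgeR adjusted p = 0.347). B2m, which the host's pDC carry intact, had a log2 difference of -0.34 ± 0.13, and Psmb9, an immunoproteasome subunit, one of -0.62 ± 0.20 (edgeR adjusted p = 0.599 and 0.585). The same genes were lower in all the other barcodes of the B2m-null isotype lanes: H2-Q7 at 122 and 160 CPM against 338 and 269 CPM, and H2-D1 at 1170 and 1375 against 1905 and 1812 CPM. Summed markers of some other cells in pDC also lay at lower means in B2m-null than in control mice: mature dendritic cell markers at 135 CPM (59.4 to 240) against 459 CPM (66.1 to 952), NK cell markers at 107 CPM (0 to 316) against 274 CPM (37.8 to 775) and T cell markers at 154 CPM (78.0 to 238) against 273 CPM (182 to 345). Macrophage markers lay at 1293 CPM (399 to 2107) against 1168 CPM (399 to 2603), and these ranges overlapped. Markers of cDC2 lay the other way, at 979 CPM (908 to 1171) in B2m-null against 705 CPM (553 to 804) in control mice, with no overlap. B cell markers at 130 CPM (33.2 to 312) against 52.4 CPM (0 to 102) and neutrophil markers at 151 CPM (0 to 475) against 72.4 CPM (0 to 280) also had higher means, with overlap. The part of these lists in the class I values was not tested, nor was entry of other cells' RNA into pDC droplets.

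Other genes with low unadjusted p-values were Ccl4 (2333 CPM ± 605 (SD, n = 5) in control and 1366 CPM ± 302 (SD, n = 4) in B2m-null tumours, log2 difference -0.83 ± 0.19), Ly6a, an interferon-responsive surface protein (-0.77 ± 0.19), and Irf7 (-0.99 ± 0.25), with edgeR adjusted p = 0.216, 0.248 and 0.294. Of 12 interferon-stimulated genes tested, 10 had a negative difference (median -0.30), and of the 8 interferon-gamma-induced genes 6 did (median -0.43). Positive differences were seen for Thbs1 (1.23 ± 0.37) and Fn1 (1.82 ± 0.58), secreted matrix proteins, with edgeR adjusted p = 0.537 and 0.585. Fn1 is one of the listed monocyte markers, and Thbs1 was higher in the other barcodes of the B2m-null isotype lanes than in their pDC. The part of other cells' RNA in these differences was not tested. The identity genes had a median of -0.10, and 0 of 23 were called.

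**Figure D4:**
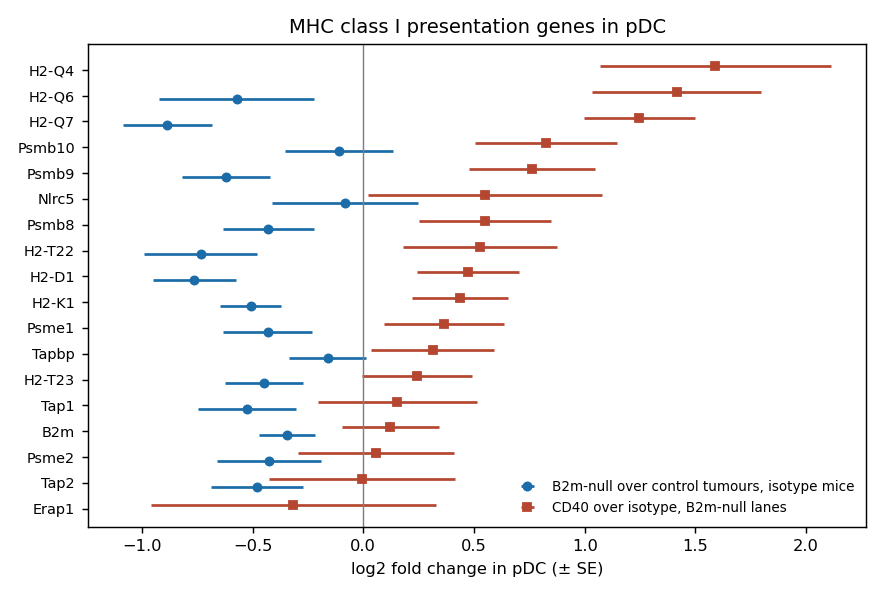
log2 fold change of MHC class I presentation genes in pDC (x axis, bars are standard errors from edgeR) for each gene (y axis): B2m-null over control tumours in isotype mice (circles) and anti-CD40 over isotype in B2m-null lanes (squares). All 16 circles lie left of 0 and 16 of 18 squares right of it; the B2m-null isotype pDC enter both comparisons.

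Anti-CD40 in B2m-null tumours left too few pDC per mouse for that unit, so lanes were compared: 17 and 16 cells with anti-CD40 against 210 and 243 with isotype, with the control isotype lanes in the same fit. Lanes pool mice, so the p-values measure the spread between lanes. In edgeR's quasi-likelihood test 2 of 5677 genes were called (0.0352%), 1 higher (0.0176%) and 1 lower (0.0176%). Igkc, the immunoglobulin kappa constant region, rose from 78.0 and 190 CPM to 1000 and 1236 CPM (log2 difference 2.93 ± 0.35 (SE), edgeR adjusted p = 5.6e-04). Thinned to 1000 UMIs, 57.6% of 33 pDC with anti-CD40 and 14.4% of 376 with isotype held an Igkc UMI (27.1% of all pDC unthinned). In the other thinned dendritic cell sets, pooled over all groups, it was at most 2.35%. Their share with anti-CD40 alone was not examined. With pDC thinned to 2000 UMIs before summing, edgeR called neither gene (adjusted p = 0.375 for Igkc), and without single lanes it called 3 to 6 genes, Igkc among them each time. In all other barcodes of these lanes Igkc moved in the same direction, from 86.5 and 101 CPM to 882 and 804 CPM, and how much of the pDC value comes from antibody-secreting cells' free RNA was not tested. Of the plasma cell markers, 3 of 3 tested had a positive difference (median 0.90) and 1, Igkc, was called, and the list's summed level in pDC was 2359 and 2658 CPM with anti-CD40 against 1177 and 1444 CPM with isotype. Iglc2, a lambda constant segment with near-identical copies, so that its count is uncertain, had a log2 difference of 1.75 ± 0.40 (edgeR adjusted p = 0.141). Tnfrsf17, a defining gene of such cells, was at 0 UMIs in the pDC of both groups. Jchain, another, was at 0 with anti-CD40 and at 0 and 2 UMIs in the isotype lanes, while Ighm was at 1077 and 1134 CPM against 981 and 1084 CPM with isotype. A count of 0 in the anti-CD40 lanes allows up to 76.9 and 50.8 CPM per gene (3 counts), so it cannot tell absence from a low level.

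**Figure D5:**
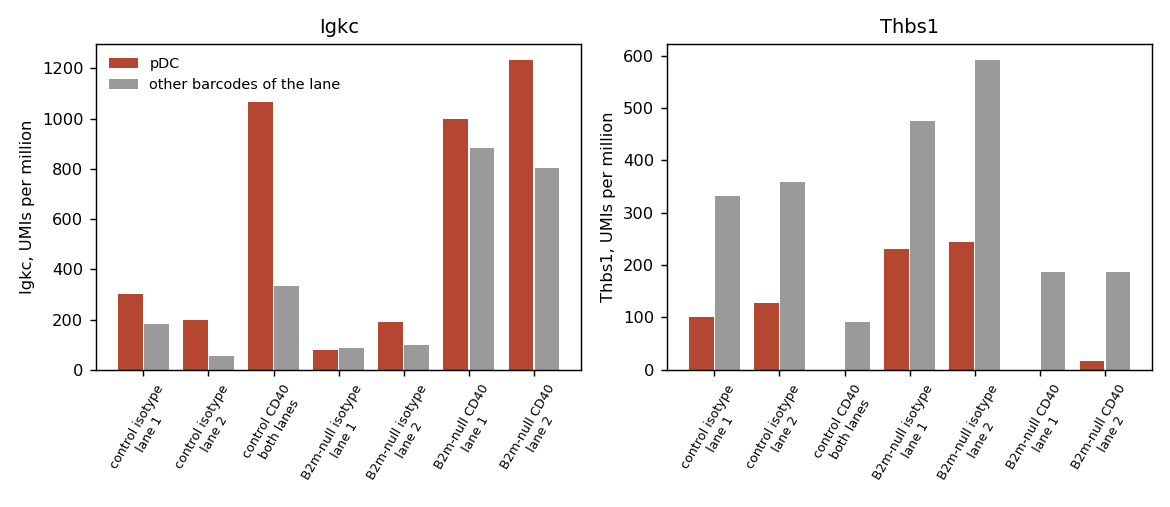
Igkc (left) and Thbs1 (right) in CPM (y axes, from 0) by lane (x axes), for pDC (red bars) and for all other barcodes of the lane (grey bars); the control anti-CD40 lanes are summed. In B2m-null tumours the red and grey bars of each gene move in the same direction between isotype and anti-CD40 lanes. The red control anti-CD40 bars rest on 9 pDC, where a count of 0 allows up to 213 CPM (3 counts).

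Thbs1, the matrix protein thrombospondin-1, fell from 231 and 245 CPM to 0 and 16.9 CPM, a single UMI (log2 difference -4.54 ± 0.74, edgeR adjusted p = 0.0174). DESeq2 did not call it (adjusted p = 0.177), nor did edgeR without lane 1 (adjusted p = 0.117) or lane 2 (adjusted p = 0.0530) of the anti-CD40 group or among pDC with no C1q UMI (adjusted p = 0.423) or after thinning (adjusted p = 0.673). In the lanes' other barcodes it went from 476 and 592 CPM to 186 and 187 CPM. Markers of several other cells also had negative differences here. A low gene could enter this fit through the deeper isotype lanes alone, and its negative sign was then close to fixed. The counts of signs below are therefore no support for a fall. Of the macrophage markers, 7 of 7 tested had a negative difference, none was called, and their summed level in pDC went from 897 and 1217 CPM to 205 and 118 CPM, with Mrc1 and Ms4a7 at 0 in both anti-CD40 lanes. Monocyte markers had a negative difference in 6 of 7 (median -2.14) and cDC2 markers in 5 of 5 (-0.80), none called. So had melanoma markers in 3 of 3, fibroblast markers in 4 of 4 and red cell markers in 4 of 4, none called. The sums of these last lists with anti-CD40 were 0 and 1, 1 and 2, and 0 and 0 UMIs. In isotype lanes 1 and 2 they were 51.0 and 458, 135 and 406, and 3.00 and 825 CPM. A count of 0 with anti-CD40 allows up to 76.9 and 50.8 CPM per gene (3 counts). The summed level of the monocyte list, which holds Ly6c2 and Plac8, was 6308 and 6229 CPM with anti-CD40 against 6135 and 5083 CPM with isotype, and that of cDC2 markers 564 and 542 CPM against 936 and 884 CPM. T cell markers lay the other way, at 231 and 372 CPM with anti-CD40 against 192 and 171 CPM with isotype. The part of other cells' RNA in the fall of Thbs1 was not tested beyond this.

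The class I and class II genes had mostly positive differences in the same comparison, none called. Of 18 class I genes 16 were positive, with a median of 0.46 against -0.099 over all tested genes, and of 12 class II genes 10 were positive, with a median of 0.70. H2-Q7 was at 1128 and 1320 CPM with anti-CD40 and at 510 and 501 CPM with isotype (log2 difference 1.25 ± 0.25, edgeR adjusted p = 0.0971). H2-Aa was at 2231 and 3487 CPM against 1252 and 1631 CPM (0.96 ± 0.26, edgeR adjusted p = 0.341). In the other barcodes of these lanes H2-Q7 was at 489 and 589 CPM against 122 and 160 CPM. Identity genes had a median of -0.11 and 0 of 24 were called: Tcf4 was at 1769 and 2268 CPM with anti-CD40 and at 2797 and 2515 CPM with isotype (-0.42 ± 0.23, edgeR adjusted p = 0.673), and Ly6d at 1769 and 1794 CPM against 930 and 1435 CPM (0.54 ± 0.26, edgeR adjusted p = 0.639). The CD40 and NF-kB genes had a median of -0.32, with 6 of 16 positive and 0 called. Dissociation and heat-shock genes had negative differences in 15 of 18 (median -0.40), and so had the 3 tested mature dendritic cell markers. The summed level of those markers was 51.3 and 0 CPM with anti-CD40, from 2 and 0 UMIs, against 129 and 145 CPM with isotype. At such counts a negative sign was close to fixed once the genes passed the low-count filter through the isotype lanes. Neither list had a called gene, and their part in the class I and class II values was not tested.

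Control tumours with anti-CD40 held 9 pDC with 14077 UMIs in all, from 1 pool, so values were given with counting intervals and no test. A UMI was seen for 23 of the 25 identity genes. Tcf4 lay at 2771 CPM (2259 and 2593 CPM in the control isotype lanes). Ly6d lay at 2771 CPM with 39 UMIs, above both isotype lanes (1499 and 1268 CPM) by its exact 95% Poisson interval, and so did Bst2, at 3836 CPM against 2845 and 2751 CPM, and Cd300c. Plac8, an identity gene that monocytes also express, lay the other way, at 3126 CPM (2271 to 4196) against 4609 and 4591 CPM. Of the 25 identity genes, 3 thus lay above and 1 below. In the other lists Pld4, Dhx58, Ly6e, Irgm1, Ccl4, Pdia4, Sec61b, Xbp1, Trbc1 and Igkc lay above, and Dusp1 below. These intervals are per gene, are not adjusted for the number of genes, and cover counting error but not the spread between mice. The share of all genes outside their intervals was not computed, so the counts above are not a result about any list. Igkc lay at 1066 CPM from 15 UMIs, against 300 and 199 CPM with isotype, and at 333 CPM against 184 and 57.2 CPM in the lanes' other barcodes. The 8 listed macrophage, 6 mature dendritic cell and 6 melanoma markers were at 0 UMIs in these cells, while the complement genes C1qa and C1qb, outside those lists, had 2 and 1. The 8 T cell markers had 7 UMIs in all, a summed 497 CPM against 247 and 286 CPM in the control isotype lanes. A count of 0 at this depth allows up to 213 CPM per gene (3 counts).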

How the data were processed

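The authors deposited, per sample, 10x matrices of raw UMI counts per gene and hashtag for each cell barcode, made with Cell Ranger 3.0.0 and bcl2fastq 2.20.0.422 on mm10, per the submitters' processing notes. From these counts, barcodes under 200 genes or over 10% mitochondrial UMIs were dropped. Before that filter, all barcodes were assigned to mice within a pool by a Gaussian mixture over log hashtag counts (posterior at least 0.9, at least 20 hashtag counts). Barcodes with several hashtags over 2.5 SD above background were called doublets. Of the 116552 deposited barcodes, 9683 were hashtag doublets and 18939 unassigned. Among the filtered barcodes doublets were 7.95% and unassigned ones 16.5%. Both kinds were left out of tests per mouse, doublets also of gene tests per lane, and no expression-based doublet caller was run. The labels tie hashtags to separate mice and list 3 for each pool, while 6 of 8 lanes' files hold 2, so the number of mice rests on the files.

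Shares were compared by two-sided exact permutation of mice, adjusted over 4 contrasts. Genes were tested on summed counts with edgeR 4.0.16 (quasi-likelihood, TMM, filterByExpr, Benjamini-Hochberg over all tested genes, threshold 0.05) in R 4.3.3, requiring at least 10 cells per sample. DESeq2 1.42.0 was an alternative, and the scripts were tested on simulated data. Per-cell shares used Python 3.11.15 with numpy 2.4.6, scipy 1.17.1, pandas 2.3.3, scikit-learn 1.9.0 and matplotlib 3.10.9. Promoters of 1 chromosome were left out of the motif count. CPM is a gene's share of the UMIs of the summed cells, scaled to 1000000. Intervals (95%) and limits of 3 counts cover counting error only. The comparison of anti-CD40 with isotype was planned per mouse and fell back to lanes, since too few treated mice held 10 pDC.

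The members and gene lists were chosen with earlier results of these data known. Named genes were the 10 largest rises and 10 largest falls past the threshold with a mean of at least 50 CPM in 1 group, leaving out mitochondrial, ribosomal protein, Gm, Rik, Xist and Y-linked genes, plus list members. A few genes that this rule names are not reported here. Alternatives covered normalization, the low-count filter, the selection thresholds, thinning, the mitochondrial limit, the unit, the replicate block and leaving out each lane or mouse.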

Additional observations from a re-analysis of the deposited data

Results flagged for a closer look

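Ccl5, a chemokine of activated lymphocytes and dendritic cells, was at 2209 CPM in the pDC of 1 control isotype mouse, far above the nearest of the other 4 mice at 553 CPM; the gap was 0.796 of the group's whole range (n = 5). Of 78 groups of values examined this way, this was the only one so far apart (1.28%), and chance gives about 1 in 20.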

How the results depend on the processing

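The difference in pDC share between anti-CD40 and isotype in B2m-null tumours stayed negative in every alternative run but did not pass with lanes as the unit (-1.83 points, where 2 lanes a group allow no exact permutation p below 0.333), at least 5 Siglech UMIs (-0.999), barcodes thinned to 1500 UMIs (-1.03) or a 5% mitochondrial limit (-0.353), and ran from -2.19 to -1.52 without single mice or lanes. The genotype difference under isotype did not pass with lanes (0.982, with the same limit), at least 5 Siglech UMIs (0.442), Tcf4 in place of the second markers (0.907), thinning (0.246) or the 5% limit (0.0219), and ran from 0.672 to 1.35 without single mice or lanes. The pDC share of dendritic cells had no stable sign: anti-CD40 in control tumours gave 0.0939 on the log2 scale, 0.855 at the 5% limit and -3.82 to 1.78 without single mice or lanes; in B2m-null tumours 5.94 thinned and -11.0 to 1.14; genotype under isotype -0.287 at the 5% limit and 2.88 to 13.3, which passed only without B2m-null isotype pool 1 hashtag 2 (10.4 points, exact permutation test, adjusted p = 0.0317); genotype under anti-CD40 -1.29 and -2.65 to 9.11. The difference of the anti-CD40 effects was +0.510 on the log2 scale and ran from -1.25 to -0.572 without single lanes, passing an unadjusted p of 0.05 in 3 cases.

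Called genes between genotypes under isotype numbered 37 with no filter on low counts, 6 in DESeq2, 2 thinned, 4 with lanes and 0 to 8 without single mice or lanes. For anti-CD40 in B2m-null tumours they numbered 45 with no filter, 1 without C1q UMIs, 0 thinned (edgeR), 4 with only the compared groups and 3 to 6 without single lanes, where a lone lane is assumed to vary like the others. Against cDC1 they were 3782 with no filter, 955 thinned and 1286 to 2540 without single lanes, against cDC2 2902, 844 and 1002 to 1855, and against mature dendritic cells 3919 with no filter and 1518 to 2383. Fewer cells remain under thinning; the cause of the other changes was not tested. Of 715 values of 62 named genes under alternatives, 709 kept direction and call, 6 (Igkc and Thbs1) lost the call and 0 reversed. Alternatives in which a gene was not tested are not counted here. The genes were named for the largest called changes in the same data, so a kept call adds little support.

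The replicate numbers are lane numbers. Deviations of same-numbered lanes correlated at -0.187 (rho 0.018, control and B2m-null isotype) and 0.182 (rho 0.22, B2m-null isotype and anti-CD40) over 1882 genes, so the numbers were not taken to pair the lanes. With the replicate block, anti-CD40 in B2m-null tumours called 11 genes (2 higher and 9 lower) and the genotypes under isotype 0, and the share differences were -1.79 (exact permutation p = 0.0167) and 0.941 (exact permutation p = 0.0333) points. With the numbers crossed, an alternative added after seeing the data, the genotype comparison called 1 gene. Not run, for lack of lanes with enough cells, were the limits of 20 cells and of 5 Siglech UMIs and the mouse unit for anti-CD40 in B2m-null tumours, all gene alternatives for anti-CD40 in control tumours (9 cells), and the block for contrasts with the control anti-CD40 pool. Cell number limits the anti-CD40 values (9 and 35 pDC), and depth per cell those of lane 1 of the B2m-null isotype group (median 1118 UMIs).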
